A study of Mus musculus with 4 samples.

Results

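The fragile X family and the proteins that bind AU-rich elements are 2 groups of RNA-binding proteins that act on mRNAs in the cytoplasm, and 10 of them were followed here after depletion of Fxr1, itself a member. These were Fxr1, Fxr2 and Fmr1 of the fragile X family, and Elavl1, Khsrp, Zfp36, Zfp36l1, Zfp36l2, Hnrnpd and Tia1, which bind AU-rich elements. They were taken by gene name, from 36413 names on the array, but earlier results of these data were known when they were chosen. Every probe that carried such a name and was not a control was taken, which gave 16 probes. All 16 were well above background on all 4 arrays, so no member was lost to a filter on low signal. Fmr1 had 3 probes, Fxr1, Elavl1, Khsrp and Tia1 had 2 each, and the other members had 1. Where 1 probe stands for a gene below, it is the brightest over the 4 arrays.

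The cells were C2C12 myoblasts, a mouse muscle precursor line that divides in culture and can be turned into myotubes. siFxr1 cells received an siRNA against exon 14 of Fxr1, which the study describes as common to all its mRNAs, and siControl cells received a random siRNA of matching GC content, both by Lipofectamine. Total RNA was taken 48 hrs after transfection, labelled with Cy3 and hybridised to whole genome arrays in 1 colour, with 1 sample per array. There were 2 experiments, each with 1 siFxr1 and 1 siControl sample on a common slide, which makes 2 arrays per condition. A line is 1 clonal stock, so the spread given below is that between repeats of the culture and not between animals. Each repeat had its own slide, so culture and slide cannot be told apart in that spread. p-values of the fit with the condition alone measure only that spread. Those of fits that also hold the experiment measure only how the difference between the conditions varied between the experiments. In RNA from whole cultures, fewer cells of a kind and less RNA per cell cannot be told apart.

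In background terms, an AU-rich element is a stretch of the 3′ untranslated region built on the pentamer AUUUA, often repeated or embedded in longer runs of A and U. It marks short-lived mRNAs such as those of cytokines, growth factors and immediate early genes. Some binding proteins, with Elavl1 (HuR) as the best known, hold such mRNAs stable. Others, such as Khsrp (KSRP) and the Zfp36 family of zinc finger proteins, bring in deadenylases, decapping enzymes and the exosome, and the mRNA is degraded. Fragile X proteins bind RNA through KH domains and an arginine and glycine rich stretch, sit on polyribosomes and control translation and mRNA stability, and Fxr1 is the family member most linked to striated muscle.

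The siRNA is shown with the stretches that the Fxr1 probes read, because a knockdown is judged from sequence outside the target site. The siRNA is given as RNA, and the probes are DNA in the direction of the mRNA, 5′ to 3′.

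siFxr1, 24 bases: gcaauccauacagcuuacuugaua
Fxr1 A_55_P2069415, chr3:33963181-33963240 of mm9, forward strand: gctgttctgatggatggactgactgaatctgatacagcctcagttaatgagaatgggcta
Fxr1 A_51_P372463, the first 30 bases of chr3:33968072-33968131, forward strand: ttgccaaagatagaatacggatcgccagtc

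Neither the siRNA nor its reverse complement occurs in any of the 55681 probes. The longest run shared with the siRNA, in either direction, was 7 bases in A_55_P2069415 and 5 in A_51_P372463, so neither probe covers the siRNA's sequence. Positions are those of the array's own annotation, and probes were not assigned to exons or untranslated regions here.

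Fxr1 mRNA was low in both siFxr1 samples. With the probe A_51_P372463, the normalized log2 signal was 10.15 and 10.77 in siFxr1 of experiments 1 and 2, and 13.84 and 13.71 in siControl. The second probe, A_55_P2069415, had 9.36 and 9.96 in siFxr1 and 13.20 and 13.34 in siControl. With either probe the 2 conditions were far apart and the siFxr1 samples differed more from each other than the siControl samples did. The signal left in siFxr1 was 7.75% of siControl in experiment 1 and 13.1% in experiment 2 by the first probe, and 6.96% and 9.60% by the second. The residual Fxr1 signal was thus higher in experiment 2 with both probes. The log2 fold change was -3.31 (SE 0.29, 95% interval -4.19 to -2.43) and -3.61 (SE 0.28, 95% interval -4.47 to -2.76).

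Few probes were as low in both experiments. Of all probes well above background on the 4 arrays, 0.0043% were at least as low as the second Fxr1 probe by the smaller of the 2 experiments' differences, and 0.0085% as the first, the probes themselves included. The fit with the condition as its only term, in which a probe is called at a B value (log odds of a change) above 0, nevertheless called 0 of the 16 member probes, as it called 0% of all 55681 probes. The limma adjusted p was 0.950 for both Fxr1 probes, which was also the lowest for any probe. An unadjusted p under 0.05 was reached by 3 of the 16 member probes and by 4.96% of all probes. When the experiment was added as a block, and probes not well above background in either condition were left out, 2 of the 16 member probes, both of Fxr1, were called beside 1.39% of the 25540 probes fitted. Their B values were then 3.40 and 4.27, with limma adjusted p of 0.0173 and 0.0146. With 2 arrays per condition a two-sided exact permutation test of a single probe that ignores the pairing cannot go below a p of 0.333. A test that keeps the pairs has fewer arrangements, and its lowest p is higher still.

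**Figure D1:**
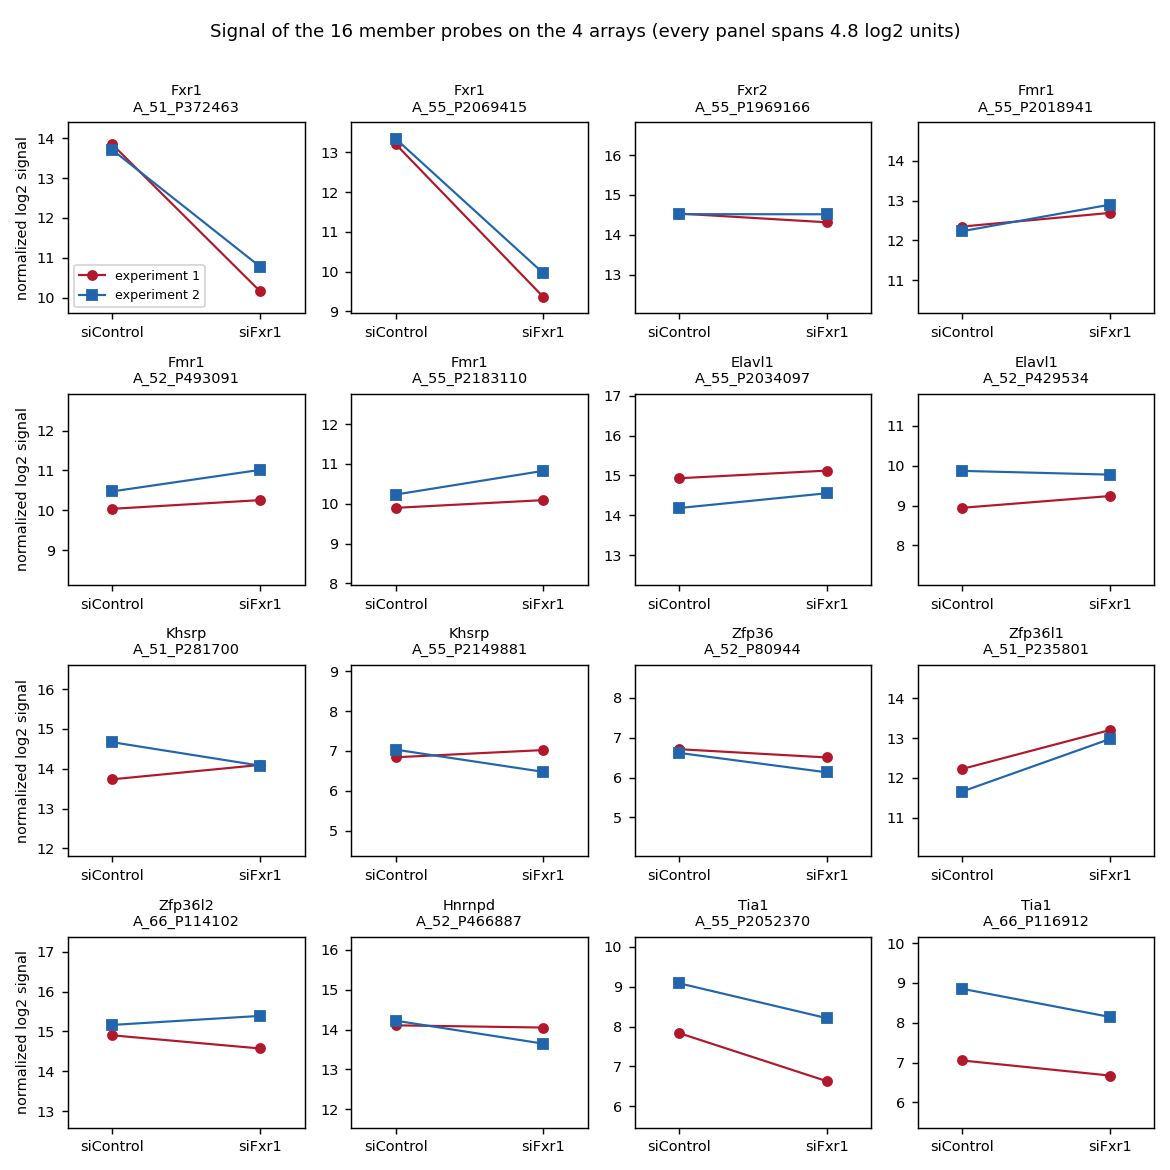
Normalized log2 signal (vertical axis) of the 16 member probes in siControl and siFxr1 (horizontal axis), 1 panel per probe, with a line joining the 2 samples of an experiment. Panels share the height of their axis but not its zero, so slopes can be compared and levels cannot. Both Fxr1 probes are far lower in siFxr1 in both experiments, Zfp36l1 is higher in both, and the 2 lines of each Tia1 panel run apart from each other.

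The other fragile X mRNAs were closer to their siControl level. Fxr2, a close relative of Fxr1 that can bind it, had a log2 signal of 14.31 and 14.51 in siFxr1 and 14.53 and 14.52 in siControl. Its siFxr1 signal stood at 85.9% and 99.8% of siControl, which is a log2 fold change of -0.11 (SE 0.17, 95% interval -0.62 to 0.39, limma adjusted p = 0.975). The interval leaves out a difference as large as that of Fxr1. In experiment 2 the 2 conditions were level for this gene, and the sign of that difference turned under every other background correction and scaling tried.

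Fmr1, whose loss causes fragile X syndrome, was read by 3 probes. A_55_P2018941 (chrX:65970891-65970950), the brightest, had 12.69 and 12.90 in siFxr1 and 12.35 and 12.23 in siControl. A_52_P493091 had 10.25 and 11.01 against 10.04 and 10.47, and A_55_P2183110 had 10.09 and 10.83 against 9.90 and 10.23. All 3 were higher in siFxr1 in both experiments, and the difference was larger in experiment 2 each time. In that experiment the siFxr1 signal was 159%, 145% and 151% of siControl, and in experiment 1 it was 127%, 116% and 114%. Only the brightest probe separated the conditions on all 4 arrays. Its log2 fold change was 0.51 (SE 0.17, 95% interval -0.02 to 1.03, limma unadjusted p = 0.0558 and adjusted p = 0.975). The others had 0.38 (SE 0.37) and 0.40 (SE 0.35), and leaving out siFxr1 of experiment 2 took these to -0.00 and 0.03. Here and below, fits with 1 array left out had no block. A pair was then broken, and the difference between the experiments entered the value. The 2 dimmer probes lie close together in the gene, and their sequences are given because they give the same direction from separate bases.

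Fmr1 A_52_P493091, chrX:65948720-65948779, forward strand: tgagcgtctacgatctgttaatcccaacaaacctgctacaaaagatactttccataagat
Fmr1 A_55_P2183110, chrX:65948200-65948259, forward strand: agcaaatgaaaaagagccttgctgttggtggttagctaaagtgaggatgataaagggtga

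Among the proteins that bind AU-rich elements, Zfp36l1 differed most in the upward direction. Zfp36l1 (BRF1) is a zinc finger protein that recruits the deadenylase complex to its target mRNAs. Its probe, A_51_P235801 (chr12:81209022-81209081), had a log2 signal of 13.20 and 12.98 in siFxr1 and of 12.23 and 11.66 in siControl. Both siFxr1 samples lay above both siControl samples, by 1.97-fold in experiment 1 and 2.50-fold in experiment 2. The log2 fold change of 1.15 (SE 0.28, 95% interval 0.30 to 2.00) had a limma unadjusted p of 0.0223, an adjusted p of 0.967 and a B value below 0. With the experiment as a block the SE was 0.22 and the unadjusted p 0.0115, and with dim probes left out as well the B value was -1.40. By the smaller of the 2 experiments' differences, 1.22% of the probes well above background were at least as high, this one included.

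The differences of its 2 relatives were smaller. Zfp36 (tristetraprolin), the founding member, which destabilises Tnf mRNA in macrophages, had 6.50 and 6.13 in siFxr1 and 6.71 and 6.62 in siControl. The siFxr1 signal was 86.6% and 71.3% of siControl, with a log2 fold change of -0.35 (SE 0.21, 95% interval -0.99 to 0.29). Zfp36l2 (BRF2) had 14.57 and 15.39 in siFxr1 and 14.90 and 15.16 in siControl, so siFxr1 was lower in experiment 1 and higher in experiment 2. Its log2 fold change of -0.05 (SE 0.37, 95% interval -1.17 to 1.07) became 0.04 under 75th percentile scaling and the other background corrections. The interval of Zfp36l1 overlaps that of Zfp36l2 and lies wholly above that of Zfp36. The difference between the genes was not tested.

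Tia1, an RNA-binding protein that silences translation and gathers in stress granules, was the member other than Fxr1 that was lowest in siFxr1. A_55_P2052370 (chr6:86381136-86381195) had 6.63 and 8.21 in siFxr1 and 7.84 and 9.09 in siControl. A_66_P116912 (chr6:86383073-86383132) had 6.67 and 8.15 against 7.05 and 8.85. Within each experiment siFxr1 was below siControl with both probes, at 43.3% and 54.4% by the first and 76.9% and 61.2% by the second. Yet siFxr1 of experiment 2 was above siControl of experiment 1. Both conditions were higher in experiment 2, by 1.25 and 1.58 on the log2 scale for the first probe and 1.80 and 1.47 for the second. The log2 fold changes were -1.04 and -0.54 and their SE without a block was 0.80 and 0.92. With the experiment as a block the SE was 0.21 for each, the 95% intervals were -1.71 to -0.38 and -1.21 to 0.12, and the limma unadjusted p was 0.0150 and 0.0811. Neither probe was called, with a B value of -1.87 and -4.55 in the blocked fit without dim probes. For the second probe, the direction turned without siFxr1 of experiment 1 or siControl of experiment 2, to 0.19 and 0.36. These fits had no block, so a pair was broken and the difference between the experiments entered the values. For the first probe, the lowest and highest of the values with 1 array left out were -1.83, without siFxr1 of experiment 2, and -0.25, without siFxr1 of experiment 1.

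Elavl1, Khsrp and Hnrnpd differed by less. Elavl1 (HuR), which stabilises mRNAs and is known to bind those of Myod1, Myog and Cdkn1a in muscle cells, had 15.12 and 14.55 in siFxr1 and 14.93 and 14.18 in siControl by A_55_P2034097 (chr8:4288411-4288470). The log2 fold change was 0.28 (SE 0.40, 95% interval -0.92 to 1.49). Its dimmer probe A_52_P429534 had 9.24 and 9.78 against 8.95 and 9.87, and its log2 fold change was 0.10 (SE 0.44). The 2 probes differed in how they moved between the experiments, since the first was lower in experiment 2 and the second higher, in both conditions. Both changed sign when an array was left out of the fit without a block. The first went to -0.00 without siFxr1 of experiment 1 and -0.09 without siControl of experiment 2, and the second to -0.17 without siFxr1 of experiment 2 and -0.36 without siControl of experiment 1.

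Khsrp (KSRP), which promotes decay of AU-rich mRNAs and in myoblasts binds that of Myog, went opposite ways in the 2 experiments with both probes. A_51_P281700 (chr17:57160973-57161032) had 14.09 and 14.08 in siFxr1 and 13.73 and 14.67 in siControl, so that the samples of siFxr1 were level and lay between those of siControl. A_55_P2149881 had 7.02 and 6.47 against 6.84 and 7.03. siFxr1 was 128% and 113% of siControl in experiment 1 and 66.5% and 67.9% in experiment 2. The log2 fold changes were -0.11 (SE 0.39) and -0.19 (SE 0.27), and the first became 0.35 without siControl of experiment 2 and the second 0.09 without siFxr1 of experiment 2.

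Hnrnpd (AUF1), made as several isoforms that mostly favour decay, had 14.05 and 13.65 in siFxr1 and 14.11 and 14.22 in siControl. The siFxr1 signal was 96.2% of siControl in experiment 1 and 67.0% in experiment 2, and the log2 fold change was -0.32 (SE 0.22, 95% interval -0.99 to 0.35). The small difference of experiment 1 turned to the other side under each of the other scalings and background corrections, while that of experiment 2 stayed between -0.65 and -0.50 on the log2 scale.

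**Figure D2:**
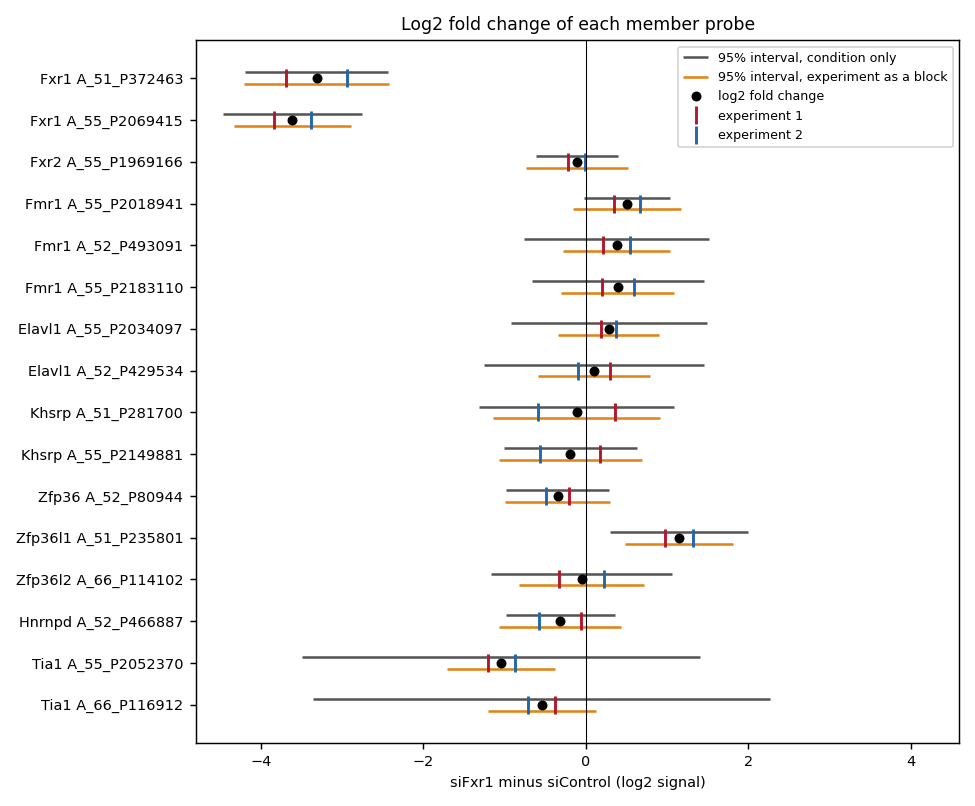
Log2 fold change of siFxr1 over siControl (horizontal axis) for each member probe (rows), with the difference in each experiment as ticks and 95% intervals from the fit with the condition alone and from the fit with the experiment as a block. The intervals of both Fxr1 probes and of Zfp36l1 do not include 0 in either fit, and that of the brighter Tia1 probe includes 0 only without the block.

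Counted over genes, 1 of the 10 members was at least 1.5-fold higher in siFxr1 in both experiments (Zfp36l1) and 2 were at least 1.5-fold lower (Fxr1 and Tia1). Over all 17812 genes with 1 probe well above background, 4.3% were higher and 4.74% lower by that measure. Over probes, 1 of 16 was higher and 3 were lower, beside 4.29% and 5.12% of all 23485 probes well above background. At 2-fold, 0 of 16 were higher and 2 lower, both of Fxr1, beside 1.12% and 1.3%. Fxr1 is the siRNA's target, so the count apart from it is 1 gene up and 1 down among 9, too few to set against the share over all genes. Both siFxr1 arrays lay above both siControl arrays for 2 members (Fmr1 and Zfp36l1), where 15.8% of all genes did so, and below them for 4 (Fxr1, Fxr2, Zfp36 and Hnrnpd), where 14.2% did. Fxr2 differed by only -0.0035 on the log2 scale in experiment 2. Under every other scaling and background correction Fxr2 and Hnrnpd went opposite ways in the experiments, so neither then lay below on all arrays.

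In direction, whatever the size, 3 members were higher in both experiments (Fmr1, Elavl1 and Zfp36l1), 5 were lower (Fxr1, Fxr2, Zfp36, Hnrnpd and Tia1) and 2 went opposite ways (Khsrp and Zfp36l2). Over all 17812 genes, 33.3% were higher in both, 30.1% lower in both and 36.4% went opposite ways. Under each other scaling and background correction 3 were lower, since Fxr2 and Hnrnpd then joined those with opposite ways. The median log2 fold change of the members was -0.11, beside 0.02 over all genes.

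**Figure D3:**
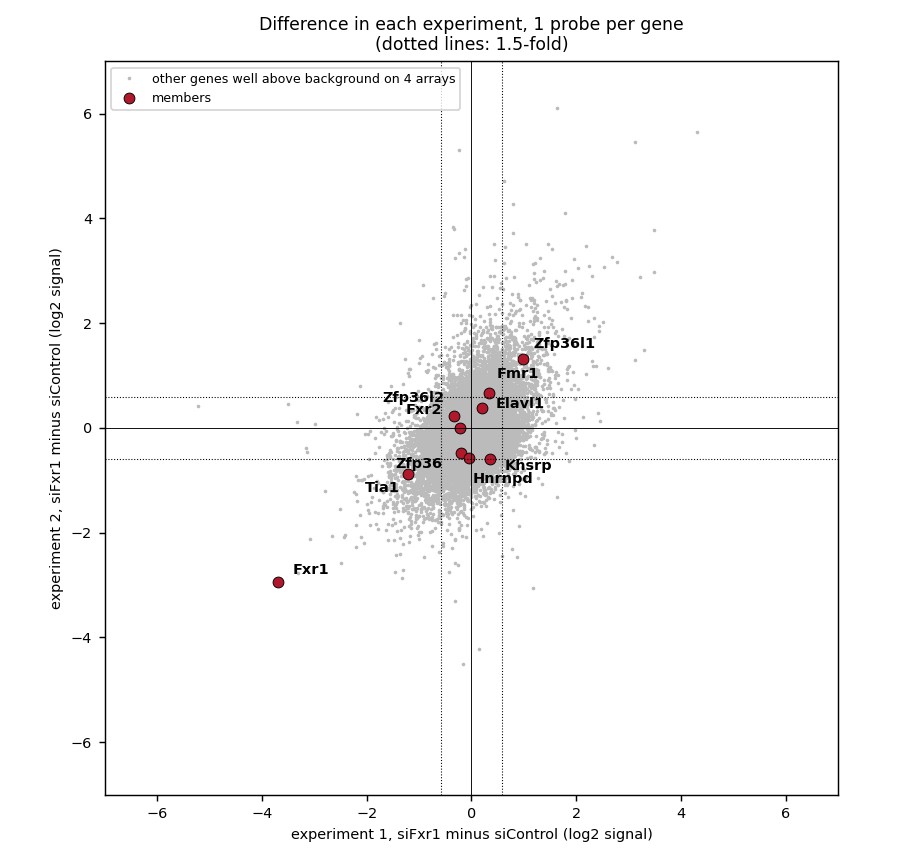
Difference of siFxr1 minus siControl in log2 signal in experiment 1 (horizontal axis) and in experiment 2 (vertical axis), with 1 probe per gene, members in red and all other genes well above background on the 4 arrays in grey. Fxr1 lies far to the lower left, with 1810058I24Rik close beside it. Zfp36l1 lies past the dotted 1.5-fold lines at the upper right and Tia1 at the lower left, and the other 7 members lie within 1.5-fold in at least 1 experiment.

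The experiments differed from each other as much as the conditions did for part of the family. For 4 of the 10 members (Elavl1, Khsrp, Zfp36l2 and Tia1), the mean absolute difference between the experiments was larger than that between the conditions, as it was for 70.2% of all probes well above background. With 2 arrays per condition this is the same as an overlap of the arrays between the conditions, so it is no second observation. Zfp36l2 and Tia1 were higher in experiment 2 in both conditions, and Elavl1, Zfp36 and Zfp36l1 were lower. Markers of differentiating muscle (Myog, Myh3, Ckm, Acta1, Tnnt3 and Myl1, 6 of 6 above background) were higher in experiment 1, by a median of 2.05 on the log2 scale in siControl and 2.01 in siFxr1. Between the conditions of an experiment their median difference was -0.00 and -0.13. Their part in the differences between the experiments was not tested. Of the myoblast markers, 5 of 6 were above background on all 4 arrays, Myod1, Des and Pax7 among them, and Myf5 on none. Of 12 markers of endothelium, epithelium, fat and neurons, 3 were above background on all arrays (Cdh5, Fabp4 and Snap25) and 5 on none (Epcam, Cdh1, Adipoq, Plin1 and Rbfox3). RNA integrity (RIN) was 8 in siFxr1 of experiment 1 and 9 in each of the others.

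Several of these mRNAs carry the pentamer themselves in the stretch that the probe reads. ATTTA was found in probes of Fxr2, Khsrp and Zfp36, in 3 of the 16 member probes and in 7.71% of all probes. TATTTAT, which contains it, was in those of Fxr2 and Zfp36 and in 1.03% of all, and TTATTTATT in that of Zfp36 and in 0.144%. On the opposite strand, 2, 0 and 0 of the 16 member probes held the 3 motifs, and the shares over all probes were 9.67%, 1.15% and 0.244%. A stretch of 30 bases around the longest match of each is printed with the match in capitals.

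Zfp36 A_52_P80944, within chr7:29161940-29161999, reverse strand: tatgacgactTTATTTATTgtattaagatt
Fxr2 A_55_P1969166, within chr11:69466722-69466781, forward strand: atgagaaggcgTATTTATttttcactgtac
Khsrp A_51_P281700, within chr17:57160973-57161032, reverse strand: agcaagaATTTAacctctgccccgcccccc

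These matches are a description of the letters and show neither binding nor use. The 3 genes did not move together, with a lower signal in both experiments for Zfp36, opposite ways for Khsrp and a level signal in experiment 2 for Fxr2. A probe of 60 bases covers only a small stretch of a mRNA, so a probe without a match says nothing of the rest.

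Of 35 other proteins that bind AU-rich elements or are related to the members, such as the neuronal Elavl proteins, the hnRNPs and the Pumilio proteins, 30 were above background on all 4 arrays. The median log2 fold change of these was 0.09. Of them, 0 were at least 1.5-fold higher in both experiments and 1 was lower, beside 4.3% and 4.74% of all genes. The exception was Celf2, which binds GU-rich and U-rich elements and regulates splicing and stability. Celf2 (A_55_P2005570, chr2:6465900-6465959) had 13.00 and 12.68 in siFxr1 and 14.06 and 13.75 in siControl, and was thus lower by 2.07-fold and 2.11-fold. With a log2 fold change of -1.06 (SE 0.23) it had a limma adjusted p of 0.964, and its other 2 probes had -1.05 and -0.98. Its paralogue Celf1 went the other way without reaching 1.5-fold in experiment 1, with 12.21 and 12.06 in siFxr1 and 11.84 and 11.32 in siControl. Tial1, the paralogue of Tia1, had 14.42 and 14.54 in siFxr1 and 14.06 and 14.26 in siControl, and was thus on the opposite side to Tia1, with 0.32 (SE 0.17). Both paralogues were named after their values were seen, and the difference within each pair was not tested.

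The listed enzymes and cofactors of mRNA decay were all above background, 39 of 39, and their median log2 fold change was 0.02. By the 1.5-fold measure 2 were higher and 1 was lower, beside 4.3% and 4.74% of all genes. At any size 13 were higher, 13 lower and 13 opposite, beside 33.3%, 30.1% and 36.4% of all genes. Dcp2, the catalytic subunit of the decapping enzyme, had 9.42 and 9.18 in siFxr1 and 8.29 and 7.98 in siControl, which is 2.19-fold and 2.30-fold higher. The fit gave 1.16 (SE 0.21) on the log2 scale, with a limma adjusted p of 0.950. Ttc37, a scaffold of the Ski complex that feeds the exosome, had 7.99 and 8.19 against 7.09 and 6.95. Xrn1, the exonuclease that degrades decapped mRNA from its 5′ end, had 6.11 and 8.39 in siFxr1 against 6.99 and 9.04 in siControl. For Xrn1 the samples of the experiments lay further apart than those of the conditions, as for Tia1. Ttc37 and Xrn1 were named after their values were seen.

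Among 34 mRNAs with well known AU-rich elements, 27 were above background on all 4 arrays. Of these, 2 were at least 1.5-fold higher in both experiments and 1 was lower, beside 4.3% and 4.74% of all genes. At any size, 11 were higher in both experiments, 6 were lower and 10 went opposite ways, beside 33.3%, 30.1% and 36.4% of all genes. Their median difference on the log2 scale was 0.08 in experiment 1, 0.32 in experiment 2 and 0.25 in the fit, beside 0.04, -0.01 and 0.02 over all genes. Il6, the cytokine, had 9.93 and 9.60 in siFxr1 and 7.82 and 7.02 in siControl, 4.33-fold and 5.99-fold higher. Il6 was the only gene of the 3 lists called in the blocked fit without dim probes, with a B value of 2.21 and a limma adjusted p of 0.0304. It was not called with the condition alone or with the block alone. Other alternatives called more of the lists. With local background subtracted as well, which called 2.33% of all probes, Il6, Pim1, Plau and Dcp2 had B values of 5.72, 3.12, 0.81 and 0.01. With the ratios of all array pairs, which share arrays and called 1.99% of all probes, Lif, Ttc37, Il6, Dcp2 and Celf2 had 2.45, 1.71, 1.02, 0.83 and 0.11. Lif, a cytokine that was above background on 3 of the 4 arrays, was named after its values were seen. Plau, the urokinase plasminogen activator, had 11.07 and 8.75 in siFxr1 and 9.93 and 7.20 in siControl. Within an experiment it was 2.19-fold and 2.91-fold higher, but siControl of experiment 2 minus that of experiment 1 was -2.73 on the log2 scale. Its log2 fold change of 1.34 (SE 1.41) became -0.03 without siControl of experiment 2. That fit had no block, so the difference between the experiments entered the value. Pim1, a kinase made in response to cytokines, had 7.30 and 7.21 in siFxr1 and 8.49 and 9.39 in siControl, 2.28-fold and 4.52-fold lower.

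**Figure D4:**
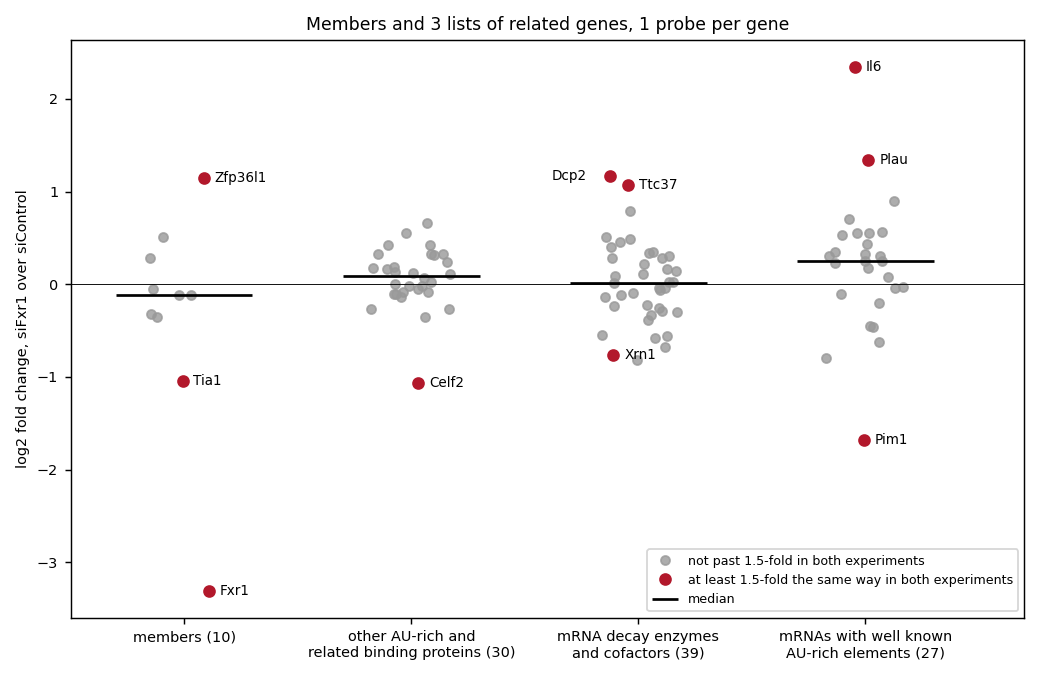
Log2 fold change of siFxr1 over siControl (vertical axis) for the 10 members and for the genes of 3 lists that were well above background on the 4 arrays (horizontal axis), 1 point per gene, with the median as a bar. Genes at least 1.5-fold changed the same way in both experiments are in red and named, and the medians of all 4 groups lie between -0.11 and 0.25.

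The genes whose pattern over the 4 arrays was most like that of Fxr1 were sought among the 17802 other genes well above background, by the Euclidean distance between log2 signals centred on their mean. They were Cdk15, a cyclin-dependent kinase, with a distance of 1.16, the predicted gene Gm8878, with 1.27, and Glb1, the lysosomal beta-galactosidase, with 1.33. Cdk15 (A_55_P2167092) had 7.40 and 7.43 in siFxr1 and 9.60 and 9.71 in siControl. Gm8878 had 7.39 and 7.19 against 9.80 and 9.24, and Glb1 had 10.24 and 10.81 against 12.29 and 13.00. In each the conditions were separate, and the log2 fold changes of -2.24, -2.23 and -2.12 were smaller in size than that of Fxr1. All 3 were called in the blocked fit without dim probes, with B values of 2.37, 2.09 and 2.05. They were chosen for this pattern on the same arrays, so the separation and the calls are no independent result.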

How the data were processed

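The authors read the 4 arrays (Agilent SurePrint G3 mouse) with Agilent Feature Extraction 10.7.3.1. The deposited scanner output holds the intensity of each spot, background-corrected within an array and not normalized between arrays. A deposited table of intensities normalized by the authors served as an alternative. Samples were grouped by their labels.

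In R 4.3.3, the log2 of the corrected intensity was quantile-normalized across arrays on 59305 spots other than controls, outlier spots were dropped and spots of a probe averaged. limma 3.58.1 (lmFit, eBayes) was fitted to all 55681 probes with a single term, the condition. The fit was also run on simulated data that held no difference between the experiments. That run therefore does not show how the fit performs on these arrays. The package, the quantile step and the threshold on B follow the study's methods. With its own fit the study reported changed transcripts, Fxr1 among them, and measured a subset by quantitative RT-PCR. The fit with the condition alone called no probe, so the study's fit was not reproduced here. These also name means of ratios without saying which arrays were paired, and a fit of all array-pair ratios was an alternative. A probe was called at a B value above 0, and p-values were Benjamini-Hochberg adjusted over all probes. Well above background means that at least 0.5 of a probe's spots carry the software's mark. Precision is limited by the number of arrays. Levels were not compared between probes.

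Replicate numbers are experiments on a shared slide and pair the samples. Samples with the same number deviated together from their condition means (r = 0.714). The members and lists were chosen with earlier results of these data known. Named beside the members were list genes at least 2-fold changed the same way in both experiments, at most 5 per list and direction, and the 3 genes most like Fxr1. Alternatives were other scalings and background corrections (normexp with an offset of 50 among them), dim probes left out, a block for the experiment, and each array left out. Hnrnpdl was found under an older symbol, Hnrpdl. Blood markers are not reported here.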

Additional observations from a re-analysis of the deposited data

How the results depend on the processing

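limma called 0 probes with the condition alone, where 2764 had an unadjusted p below 0.05, under any scaling, background correction or filter on dim probes, with any array left out or at an adjusted p under 0.05, and 0 with the replicate block alone. The block with the dim filter called 354 probes, with the median intensity minus local background as well 596, and the ratios of all array pairs, which share arrays, 1107. In these fits Fxr1 was called, at -3.31, -3.17 and -3.31, and Zfp36l1 in the second alone, at 1.17. Fxr1 ranged from -3.62 to -3.00 with an array left out. The lone sample of an arm was then assumed to vary like the other condition. Fits with an array left out had no block, so a pair was broken and the difference between the experiments entered their values. The 4 member probes past 1.5-fold became 2 at 2-fold and 8 in experiment 2 alone, and stayed 4 under the other settings. The members' median was -0.0293 with 75th percentile scaling, and -0.24 to -0.0671 with an array left out.

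Zfp36l2 turned to 0.04 under 75th percentile scaling (0.0396), normexp (0.0437), no background subtraction (0.0423), local background (0.0426, also with the block and filter) and the deposited table (0.0423). With an array left out it ranged from -0.46 to 0.36, Elavl1 from -0.0922 to 0.66 and -0.36 to 0.56 for its dimmer probe, Khsrp from -0.58 to 0.35 and -0.46 to 0.0853, Fmr1 A_52_P493091 from -4e-04 to 0.76, Tia1 A_66_P116912 from -1.44 to 0.36 and Plau from -0.0264 to 2.70. The block changed no call of a member without the filter. The causes were not tested.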

Other observations

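Il1b and Lif, whose mRNAs also carry AU-rich elements, were well above background on 3 of the 4 arrays and stayed out of the counts. Il1b had a log2 signal of 7.05 and 5.88 in siFxr1 and 5.90 and 4.11 in siControl, and Lif had 6.33 and 6.48 against 5.28 and 5.13. Both were higher in siFxr1 within each experiment, by 1.46 and 1.21 on the log2 scale (SE 0.85 and 0.17), and they were named after their values were seen. Cdkn1a, whose mRNA is bound by Elavl1, was read by 3 probes. The brightest had 15.52 and 15.04 in siFxr1 and 15.44 and 13.33 in siControl, so that siControl of experiment 2 alone stood low with this probe. Myod1, another mRNA of this kind, had 13.77 and 13.07 against 13.93 and 13.80. Neither gene met the rule for naming, and both were named after their values were seen. The other probes of Cdkn1a and the values of Myog are not given here.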
